A study of Mus musculus with 4 samples.

Results

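Plasmacytoid dendritic cells (pDCs) were taken from single-cell RNA counts of mouse tibia by the transcripts each cell barcode held, and 96 were found among 11980 kept barcodes, or 0.801% (95% binomial interval 0.650 to 0.978). A kept barcode had at least 1000 unique molecular identifiers (UMIs, each a tag that marks 1 captured RNA molecule), at least 200 genes and at most 15% of its UMIs from mitochondrial genes. A pDC also had at least 3 UMIs of Siglech, at most 3 of Cd79a and Cd79b together, under 5% of its UMIs from S100a8 and S100a9, and at most 4 UMIs of C1qa, C1qb and C1qc together. The cells were thus selected on the measured UMIs of these 8 genes, and the levels of these genes describe the choice and are not findings.

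The mice were 8 weeks old and carried Col10a1Cre, Rosa26-Tdtomato, Irx3 +/Δ and Irx5 +/-, which the submitters call the Irx3/5 heterozygous control, with no PTH given per the titles. Col10a1 drives Cre in hypertrophic chondrocytes of the growth plate, so a Tdtomato mark is not designed for pDCs. Cells were released from proximal and distal tibia with dispase, collagenase and trypsin. There was 1 group, as 4 records whose cells were deposited in 1 matrix under 1 barcode suffix, with 0 barcodes repeated, and it is not stated whether the records came from separate animals. No cell could be given to a record, so there was no replicate and no test between samples, and every interval here covers counting error only.

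Plasmacytoid dendritic cells are a bone marrow-born lineage known for releasing type I interferon when Tlr7 or Tlr9 meets viral nucleic acid in endosomes. The factor E2-2, encoded by Tcf4, drives and maintains the lineage, and Flt3 ligand acting through Flt3 supports its development in marrow. Siglech is a receptor of the Siglec family that signals with the adaptor Tyrobp, and Bst2 is an interferon-induced membrane protein that also marks mouse pDCs at rest.

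The pDCs held 819902 UMIs in all, with a median of 6475.5 UMIs per cell (1308 to 43873), 2467.5 genes and 7.38% mitochondrial UMIs. The other 11884 kept barcodes held 82336800 UMIs, with a median of 4692. For comparison, other barcodes were put into sets by marker counts. The B-lineage set had at least 10 UMIs of Cd79a and Cd79b (3126 barcodes), and the MHC class II-high set had at least 20 UMIs of H2-Aa, H2-Ab1 and H2-Eb1 with little Cd79 (151 barcodes). The monocyte set had at least 3 UMIs of Ly6c2 and at least 3 of Csf1r and F13a1 (401 barcodes). A neutrophil set (3167 barcodes), a haemoglobin set (1751 barcodes) and a C1q macrophage set (139 barcodes) passed their own marker limits. Every barcode in these sets also had under 3 Siglech UMIs.

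The label was looked at first through other genes. All 96 pDCs had UMIs of at least 2 of the markers Bst2, Tcf4 and Flt3, and 71 had all 3. Of 29 identity genes other than Siglech, a pDC held 7 to 27, with a median of 18.5. The cells thus ranged from few to nearly all of these genes. The identity list was chosen with earlier results of these data known, and its count was made in pDCs only. Among 3480 barcodes with 0 Siglech UMIs that met the other limits, 23.1% had a Bst2 UMI, 20.4% Tcf4 and 5.29% Flt3. Unsupervised clustering placed 89 of the 96 in 1 cluster of 295 barcodes, where 177 of the 206 others had 0 Siglech UMIs. A finer clustering placed 80 of them in a cluster of 100, in which 15 of the other 20 barcodes had 3 or more Siglech UMIs. The clusters used Siglech among other genes, so they describe the choice and do not check it. Among all kept barcodes 117 had 3 or more Siglech UMIs, and the other 21 were left out by Cd79a and Cd79b (15), by S100a8 and S100a9 (5) or by C1q (1).

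Transcripts of other lineages sat in 8 of the 96 pDC barcodes, and these bear on several results below. In 4 of them haemoglobin genes took 6.10% to 52.5% of UMIs, against at most 0.546% in the pDCs outside these 8. In the other 4 Lyz2, a myeloid lysozyme, had 23 to 363 UMIs, against at most 2. The 8 mixed barcodes had a median of 23489.5 UMIs, against 6381 in the other 88 pDCs. They held 23.4% of all pDC UMIs but 95.8% of the haemoglobin, 96.8% of the Lyz2, 94.0% of the Mpo and 56% of the Mki67 UMIs, and only 4.70% of the Siglech UMIs. Of the 96 pDCs, 2 were called doublets by Scrublet. Whether the 8 are pairs of cells was not tested. Values without them are given beside many of the results that they move, and all other values include them.

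Markers of other cell types were summed as panels of 6 genes each. The B-lineage, macrophage and neutrophil panels hold genes that the selection rule limited in pDCs. Their low values in pDCs were thus partly set by the choice. Levels are given as CPM, the UMIs of a gene or panel scaled to a total of 1000000 UMIs in the set. In pDCs the B-lineage panel had 76.8 CPM, with at most 4 UMIs in a cell, the macrophage panel 9.76 CPM and the T-cell panel 21.95 CPM. The classical dendritic cell panel had 252 CPM in pDCs, with UMIs in 69 cells, and 18.96 CPM in all other kept barcodes. The natural killer panel had 270 CPM in pDCs, with UMIs in 76 cells, and 59.8 CPM in the others. Both were thus higher in pDCs than in all other kept barcodes together. In the MHC class II-high set the classical dendritic cell panel had 472 CPM, more than in pDCs, and the natural killer panel 80.5 CPM. The neutrophil panel had 1018 CPM and the progenitor panel 638 CPM in pDCs, against 93469 and 2498 CPM in the others. Most of the progenitor sum came from Mpo, Prtn3 and Elane in the mixed barcodes. These genes had 265, 235 and 92.7 CPM in all pDCs, and 20.7, 15.9 and 3.18 CPM without the mixed barcodes. The erythroid panel had 25281 CPM in pDCs and 115025 CPM in the others, with a median of 9 and at most 8133 UMIs in a pDC. The monocyte panel was higher in pDCs, with 1242 CPM against 847 CPM in the others, and a median of 4 and at most 153 UMIs in a pDC. The erythroid and monocyte sums therefore lay far above their medians in a few cells.

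Around the threshold of 3 Siglech UMIs, exactly 3 Siglech UMIs were found in 5 pDCs, and 7 barcodes that met all other limits had exactly 2. Just inside the threshold, 9 pDCs with 3 to 4 Siglech UMIs had 788 CPM of Bst2 and 805 CPM of Tcf4. Just outside it, the 7 barcodes had 708 CPM of Bst2 and 669 CPM of Tcf4. Ccr9 differed more across the threshold, with 214 CPM inside and 9.70 CPM outside, and Cox6a2 had 248 CPM inside and 116 CPM outside. Of the 9 pDCs just inside, 4 were mixed barcodes. The other 5 had 1465 CPM of Bst2, 1611 CPM of Tcf4 and 176 CPM of Ccr9, at a median of 8488 UMIs. The 7 barcodes outside had a median of 15904 UMIs and were not screened for transcripts of other lineages. The values of these 5 and 7 are thus not a like comparison across the threshold. The 31 pDCs with 20 or more Siglech UMIs had 4120 CPM of Bst2 and 2598 CPM of Tcf4.

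**Figure D1:**
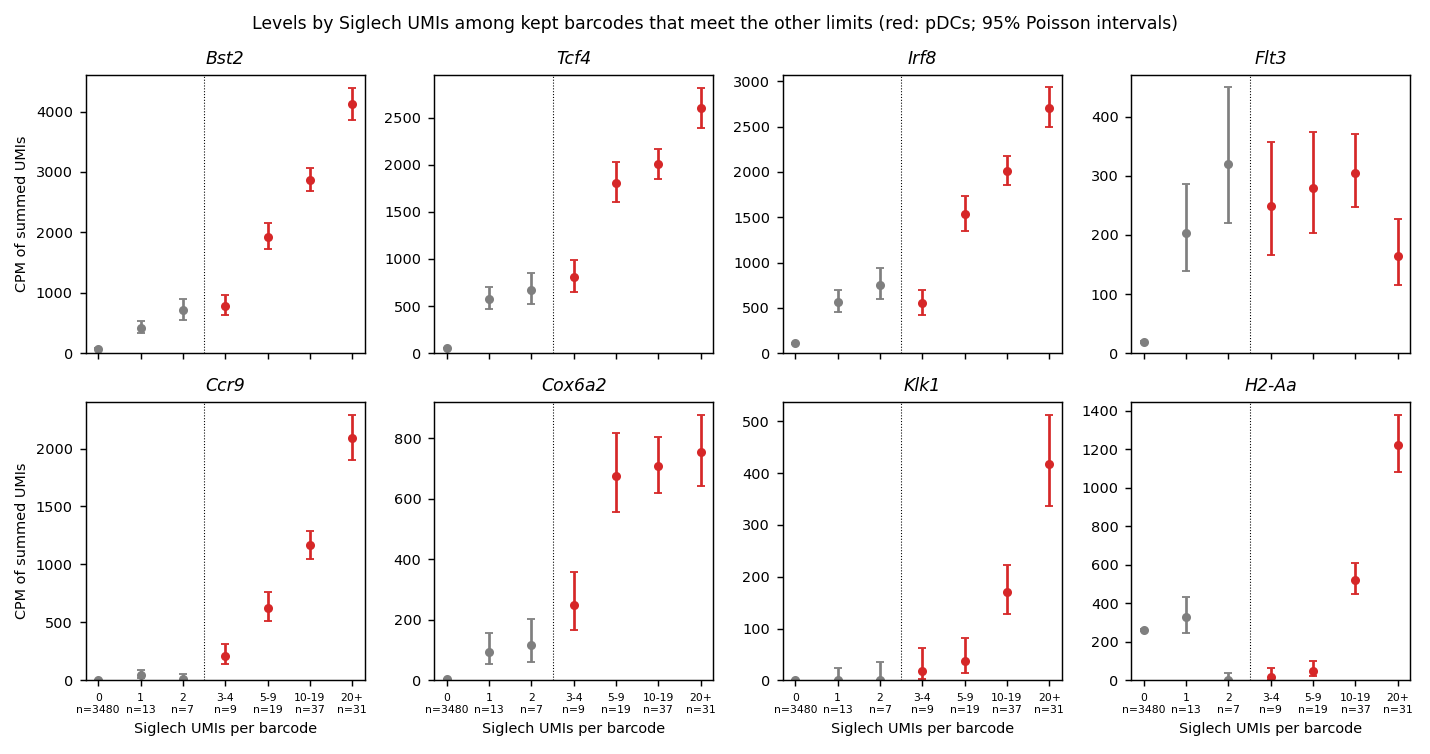
Levels of 8 genes (CPM of summed UMIs, linear axes from 0, with 95% Poisson intervals) in kept barcodes that met the other limits, binned by Siglech UMIs per barcode; red points right of the dotted line are pDCs, and n is the number of barcodes. Bst2, Tcf4, Ccr9, Klk1 and H2-Aa were highest in the 31 barcodes with 20 or more Siglech UMIs, while Flt3 had its highest value in the 7 barcodes with 2, with an interval that overlaps those of the pDC bins under 20. The mixed barcodes are included.

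The genes that stood out most in pDCs, by ratio of CPM to all other kept barcodes, were led by Klk1 and Siglech. Siglech itself had 1867 CPM in pDCs, against 4.17 CPM in the other barcodes, where the 21 left-out barcodes are counted too. Each pDC had 3 to 60 Siglech UMIs (median 15.5), as the rule required. The leading gene, Klk1, encodes a tissue kallikrein, a secreted serine protease, and lies at chr7:44225360-44229618 on the plus strand (mm10). Klk1 had 189 CPM in pDCs, against 0.231 CPM in the others, a ratio of 819 (507 to 1398). Its UMIs came from 40 of the 96 pDCs, with 0 to 19 per cell, so the mean covers cells with many and cells with none. Ccr9, the receptor for the chemokine Ccl25 (chr9:123678439-123784330, plus strand), had 1172 CPM in pDCs and 4.63 CPM in the others, a ratio of 253 (225 to 286). Ccr9 UMIs were present in 84 pDCs, with a median of 7 and at most 42 per cell.

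The promoters of 4 of these leading genes are shown because the factor encoded by Tcf4 belongs to the E proteins, which bind the E-box CANNTG. Each line is the 250 bases before the gene start in RefSeq (GRCm38.p6), in the direction of transcription, with CANNTG in capitals. They are Siglech at chr7:55767934-55768183 and Klk1 at chr7:44225110-44225359 on the plus strand, Ccr9 at chr9:123766961-123767210 on the plus strand, and Cd300c at chr11:114960508-114960757 on the minus strand.
Siglech: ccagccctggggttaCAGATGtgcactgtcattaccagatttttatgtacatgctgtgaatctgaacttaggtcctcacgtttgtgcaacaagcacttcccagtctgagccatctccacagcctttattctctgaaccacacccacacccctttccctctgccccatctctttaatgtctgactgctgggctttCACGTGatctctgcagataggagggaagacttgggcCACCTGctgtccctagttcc
Klk1: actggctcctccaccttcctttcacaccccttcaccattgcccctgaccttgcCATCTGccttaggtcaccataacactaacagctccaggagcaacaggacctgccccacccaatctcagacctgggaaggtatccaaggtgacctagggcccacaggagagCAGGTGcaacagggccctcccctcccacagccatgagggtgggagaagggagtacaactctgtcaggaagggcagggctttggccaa
Ccr9: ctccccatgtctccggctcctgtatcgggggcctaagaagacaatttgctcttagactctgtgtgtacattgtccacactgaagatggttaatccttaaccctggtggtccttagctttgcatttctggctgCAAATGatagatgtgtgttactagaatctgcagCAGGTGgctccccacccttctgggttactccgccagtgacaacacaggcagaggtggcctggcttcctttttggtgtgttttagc
Cd300c: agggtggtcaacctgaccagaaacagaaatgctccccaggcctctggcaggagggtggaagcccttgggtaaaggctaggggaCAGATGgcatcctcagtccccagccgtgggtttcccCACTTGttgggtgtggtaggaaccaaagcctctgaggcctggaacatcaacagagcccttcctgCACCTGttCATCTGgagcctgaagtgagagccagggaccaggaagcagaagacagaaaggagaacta
Each of the 4 windows holds CAGGTG or its reverse complement CACCTG. The windows of the leading genes Atp2a1, Dll4, Pacsin1 and Ptprf hold neither, and those of Dll4 and Pacsin1 hold no CANNTG at all. The Ccr9 window lies within the Ccr9 span given above, because the RefSeq start differs from the start of that span. Of the 20 leading genes, 13 had an entry in the RefSeq table, with 18 promoters between them. CANNTG, which reads the same on both strands, was in 14 of the 18 (77.8%), and in 66.2% of all 32851 promoters. CAGGTG or CACCTG, which are also E-boxes, were in 9 of the 18 and in 17.2% of all promoters. The Ets-type motif GGAAGT or ACTTCC was in 2 of the 18 (11.1%) and in 19.7% of all. Several promoters belong to the same gene and were counted separately, and a match is a description of letters, not of binding.

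Among the 20 leading genes, Siglech ranked 2 and Ccr9 ranked 6. Cd300c, an activating receptor of the CD300 family that ranked 10, had 170 CPM in pDCs and 1.28 CPM in the others, a ratio of 133 (102 to 173). Lag3, a receptor that binds MHC class II, had 68.3 CPM in pDCs and 0.777 CPM in the others. Cox6a2, a mitochondrial cytochrome oxidase subunit best known from muscle, had 649 CPM in pDCs and 6.45 CPM in the others, a ratio of 101 (89.0 to 114). Cox6a2 was also detected broadly among the cells, in 86 of 96 pDCs. Further leading genes were the endocytic adaptor Pacsin1 (133 CPM in pDCs, 1.23 CPM in the others), the Notch ligand Dll4 (31.7 and 0.267 CPM) and the calcium pump Atp2a1 (53.7 and 0.291 CPM). At the other end were neutrophil granule genes and B-cell genes, led by Camp, an antimicrobial peptide, with 113 CPM in pDCs and 15167 CPM in the others. Ngp, Lcn2 and Ly6g, also of neutrophils, and Ms4a1, Pax5 and Jchain, of B cells and plasma cells, were among the 10 lowest too, and limits on Cd79a, Cd79b and S100a8 favour such genes.

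**Figure D2:**
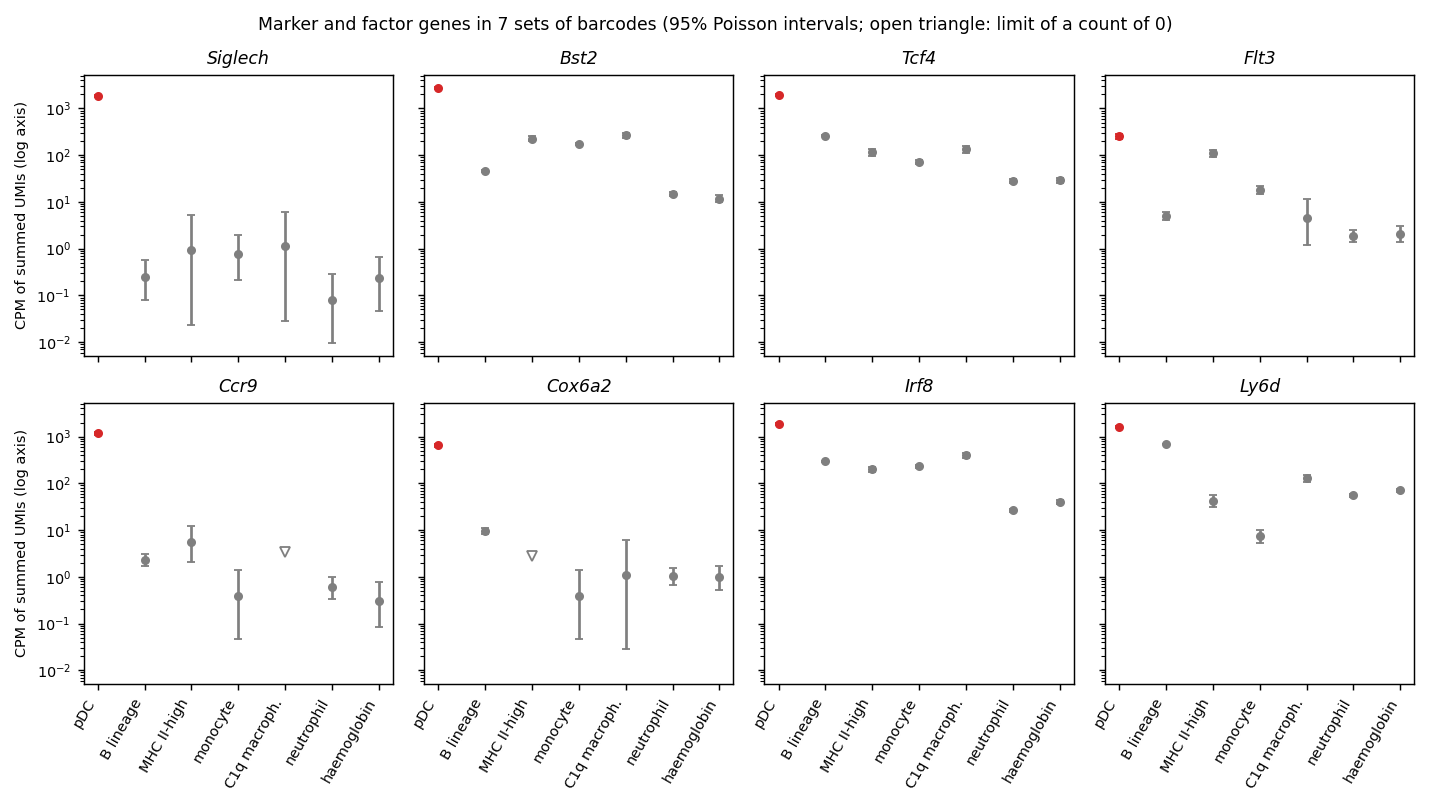
CPM of summed UMIs (log axis, 95% Poisson intervals) of 8 marker and factor genes in pDCs (red, left) and in 6 other sets of barcodes (grey); open triangles mark the limit that a count of 0 allows. All 8 genes were highest in pDCs among these 7 sets, and for Siglech the limits that chose the sets fixed this.

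A gene entered the comparisons if its pooled level predicted at least 5 UMIs on each side, and it was called at a 2-fold ratio. Of the 20 leading genes, only Siglech, Ccr9 and Cox6a2 were compared with all other barcodes on this rule. The rest, with Klk1, Cd300c, Pacsin1, Lag3, Dll4 and Atp2a1 among them, were not, because the pooled level is low. The 20 were listed by limits on UMIs and cells of pDCs alone, the side where they are high, so their ratios are descriptions only. Over all other kept barcodes 8947 genes were compared, of which 1183 (13.2%) were at least 2-fold higher in pDCs and 1108 (12.4%) at least 2-fold lower. The median gene had a log2 ratio of 0.24, and the counts changed to 729 higher and 1394 lower when that median was set to 0. Over the B-lineage set 892 of 9073 genes (9.83%) were higher and 1417 (15.6%) lower. Over the MHC class II-high set 1755 of 9023 (19.5%) were higher and 966 (10.7%) lower, and over the monocyte set 1304 of 8757 (14.9%) were higher and 1076 (12.3%) lower. These shares are the background against which the counts in each gene list are read.

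Of the 30 identity genes, all had pDC UMIs, and 20 were compared with all other barcodes. Of these, 17 were at least 2-fold higher and 0 lower, with a median log2 ratio of 3.48. Siglech, which chose the cells, is among them, and the other 19 had 16 higher and 0 lower, with a median of 3.38. The list was chosen with earlier results of these data known, so its counts are descriptions. The 3 in between were Ly6c2 (982 CPM in pDCs, 512 CPM in the others), Atp1b1 (384 and 254 CPM) and Ptprcap (256 and 219 CPM). Ly6c2 is a monocyte marker too, and the monocyte set had 2067 CPM of it. Bst2 had 2723 CPM in pDCs against 228 CPM in the MHC class II-high set and 173 CPM in the monocyte set. Ly6d, a surface protein of early B-lineage cells and of lymphoid-derived pDCs, had 1620 CPM in pDCs and 692 CPM in the B-lineage set. Dntt, the terminal transferase that adds bases at V(D)J joints, had 287 CPM in pDCs and 111 CPM in the B-lineage set. Dntt UMIs were found in 53 pDCs, with at most 29 per cell, and Dntt was at 328 CPM without the mixed barcodes. The B-lineage set was not split by stage, so its Dntt level is a mean over all of its barcodes.

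The transcription factors of the lineage were mostly higher too. Of the 20 listed, 18 were compared with all other barcodes, 12 were higher and 2 lower, with a median log2 ratio of 1.44. Tcf4 had 1955 CPM in pDCs, against 261 CPM in the B-lineage, 116 CPM in the MHC class II-high and 71.1 CPM in the monocyte set. Every pDC had Tcf4, with 2 to 44 UMIs and a median of 15. Irf8, a factor needed for several dendritic and monocyte fates, had 1897 CPM in pDCs, against 294 CPM, 200 CPM and 230 CPM in those 3 sets. The smallest of the 3 ratios for Irf8 was 6.45 (6.10 to 6.83), over the B-lineage set.

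Runx2, best known as the master factor of bone-forming osteoblasts and also used by pDCs, had 488 CPM in pDCs and 19.03 CPM in the other barcodes, a ratio of 25.6 (22.9 to 28.6). Its UMIs were spread over 81 of the 96 pDCs, with at most 19 in a cell. Bcl11a, a factor of B cells and pDCs, had 562 CPM in pDCs and 167 CPM in the B-lineage set. Spib, an Ets factor of both lineages, had 421 CPM in pDCs and 432 CPM in the B-lineage set, a ratio of 0.973 (0.871 to 1.08). Spib therefore did not separate pDCs from B-lineage barcodes, while it stood 218-fold (117 to 459) above the monocyte set. Mycl, a Myc family factor of dendritic cells, had 64.6 CPM in pDCs and 4.63 CPM in the MHC class II-high set. Irf7, the factor of interferon gene induction, had 58 UMIs in all pDCs, 70.7 CPM, against 73.1 CPM in the MHC class II-high and 52.9 CPM in the monocyte set. The 2 lower factors were Ikzf3 (1 UMI, against 72.1 CPM in the others) and Ets1 (129 and 261 CPM), and Ets1 was no longer 2-fold lower without the 8 mixed barcodes (162 CPM).

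Factors that act against the pDC fate or mark other dendritic and myeloid fates differed by comparison set. Of 12 listed, 9 were compared with all other barcodes, 1 was higher and 4 were lower, with a median log2 ratio of -0.71. Without the mixed barcodes 1 was higher and 5 were lower. Over the MHC class II-high set 9 of 11 compared were lower and 1 higher, over the monocyte set 6 of 9 were lower and 2 higher, and over the B-lineage set 2 of 9 were lower and 2 higher. Id2, an inhibitor of E proteins, had 41.5 CPM in pDCs and 147 CPM in the MHC class II-high set. Batf3 and Zbtb46, factors of classical dendritic cells, had 1 and 2 UMIs in all pDCs together. Runx3 was the exception, with 417 CPM in pDCs, 164 CPM in the MHC class II-high set and 32.1 CPM in all other barcodes.

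The genes that sense nucleic acids in endosomes were more often higher than lower over all other barcodes, but not over the MHC class II-high or monocyte sets. Of 23, 18 were compared with all other barcodes, and 8 were higher and 0 lower, with a median log2 ratio of 0.89. The counts were 3 higher and 2 lower over the B-lineage, 4 higher and 6 lower over the MHC class II-high, and 2 higher and 2 lower over the monocyte set. Over all other barcodes 5 were higher when the median gene was set to 0. Tlr7, the receptor for single-stranded RNA, had 32 UMIs in 27 pDCs, 39.0 CPM, against 13.9 CPM in the MHC class II-high and 22.6 CPM in the monocyte set. With every barcode downsampled to 1000 UMIs, 4 of 96 pDCs (4.17%) and 0.316% of neutrophil-set barcodes had a Tlr7 UMI, at median depths of 6475.5 and 5631 UMIs before downsampling, when 28.1% and 3.09% had one. Tlr9, the receptor for CpG DNA, had 2 UMIs and Tlr12 had 11, too few to place them. Unc93b1, which carries these receptors to endosomes, had 477 CPM in pDCs and 163 CPM in the others. Pld4, an endosomal nuclease that limits Tlr9 signalling, had 505 CPM in pDCs and 49.5 CPM in the others, and 1.58-fold (1.42 to 1.76) the level of the monocyte set. Irf5 had 69.5 CPM in pDCs, 196 CPM in the MHC class II-high and 173 CPM in the monocyte set.

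Few receptors for bacterial products at the cell surface could be compared. Of 9 listed, 6 had any pDC UMI, 4 were compared with all other barcodes and 3 of those were lower, while over the B-lineage set 1 of 3 compared was higher and 0 were lower. Cd14, the co-receptor for lipopolysaccharide, had 59.8 CPM in pDCs and 565 CPM in the monocyte set, and only 3.18 CPM in the 88 pDCs without mixed barcodes. Tlr2 and Tlr4 each had 0 CPM in those 88 pDCs. Most UMIs of these 3 genes in pDCs thus came from the mixed barcodes.

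No interferon transcript was counted. All 20 listed interferon genes, 18 of type I and 2 of type III, had 0 UMIs in pDCs, and 1 UMI of Ifnab was counted in all other kept barcodes. A count of 0 in 819902 UMIs allows up to 3.66 CPM for each gene. Genes that respond to interferon were mixed. Of 36 listed, 25 were compared with all other barcodes, with 7 higher and 7 lower. Over the MHC class II-high set 6 of 31 compared were higher and 14 lower, with a median log2 ratio of -0.32. Over the monocyte set 4 of 30 were higher and 12 lower, with a median of -0.55, and over the B-lineage set 7 of 21 were higher and 2 lower. With each other set counted equally 5 of 25 were higher and 10 lower. Ifnar1 and Ifnar2, the receptor chains for type I interferon, had 315 and 261 CPM in pDCs, against 54.2 and 55.4 CPM in the others. Stat2, which carries the receptor's signal, had 87.8 CPM in pDCs and 14.03 CPM in the others. Among induced genes, Trim30a had 228 CPM in pDCs and 43.6 CPM in the others, while Isg15 (3 UMIs), Rsad2 (32.9 CPM in pDCs, 136 CPM in the others) and Ifitm3 (189 and 404 CPM) were lower. Without the mixed barcodes Ifitm3 was at 46.2 CPM, Rsad2 at 12.7 CPM and Isg15 at 1.59 CPM in pDCs. Irf9, the DNA-binding partner of Stat2, had 97.6 CPM in pDCs and 39.7 CPM in the others.

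Class II antigen presentation genes lay far below the MHC class II-high set, and 5 of 12 compared were higher and 3 lower over the monocyte set. Over the MHC class II-high set 0 of the 16 listed genes were higher and 15 lower, with a median log2 ratio of -2.96, and the levels of H2-Aa, H2-Ab1 and H2-Eb1 chose that set. Cd74, the invariant chain, had 1432 CPM in pDCs, against 13133 CPM in the MHC class II-high, 1180 CPM in the B-lineage and 95.2 CPM in the monocyte set. Over all other barcodes 4 of 15 were higher and 5 lower, and without the mixed barcodes 7 were higher, Cd74, H2-Aa and H2-Ab1 now among them, and 3 lower. With each other set counted equally 1 was higher and 10 lower, with a median log2 ratio of -1.35. H2-DMa, an editor of class II peptide loading, had 234 CPM in pDCs and 478 CPM in the MHC class II-high set. Ciita, the master regulator of class II genes, had 4 UMIs (lower than in all other barcodes, but within 2-fold without the mixed barcodes), and the costimulatory genes Cd40 and Cd80 had 0 UMIs, which allows up to 3.66 CPM each. Itgax, an integrin chain of dendritic cells, had 97.6 CPM in pDCs, 45.3 CPM in the MHC class II-high and 1.93 CPM in the monocyte set. Clec9a, a receptor for dead cells best known from type 1 classical dendritic cells, had 25 UMIs, 30.5 CPM, in pDCs and 19.4 CPM in the MHC class II-high set. Xcr1 and Ccr7, a marker of that type and a migration receptor, had 0 and 1 UMIs in pDCs.

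**Figure D3:**
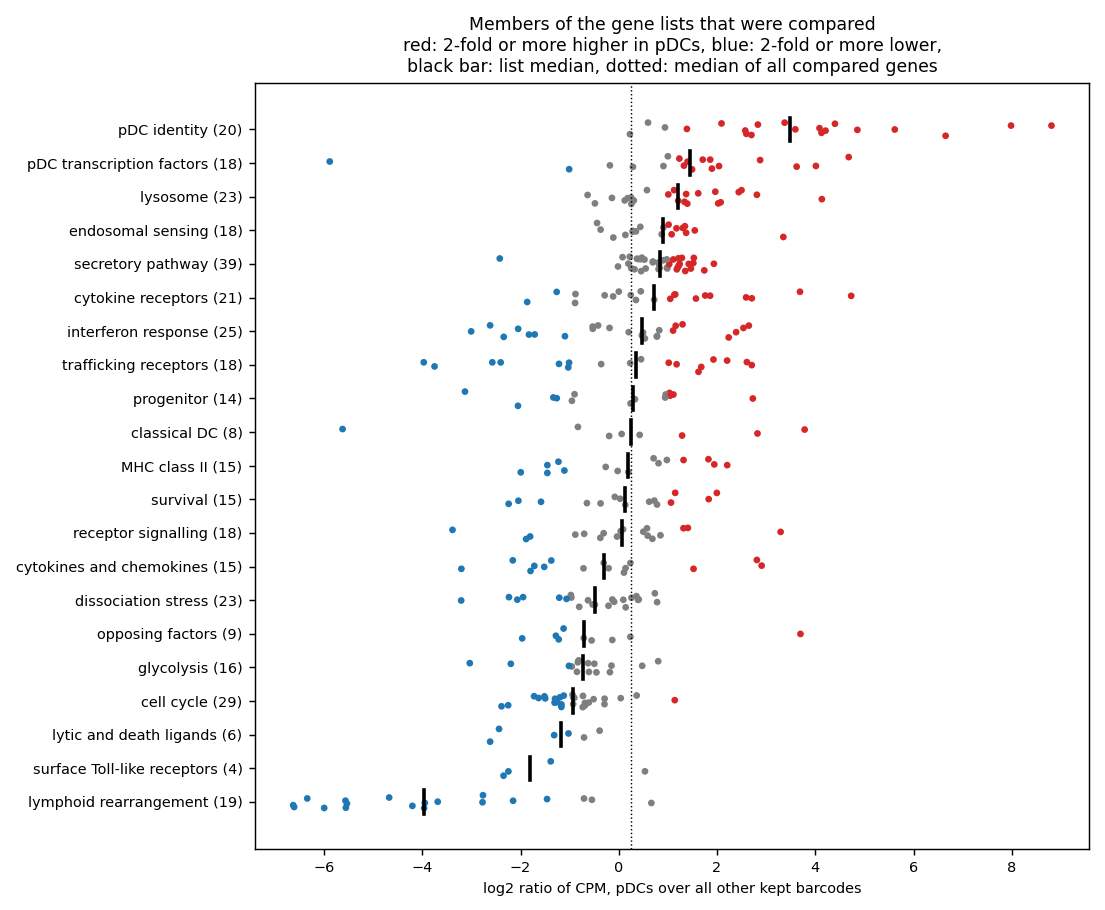
Log2 ratio of CPM, pDCs over all other kept barcodes, for every compared gene of 21 lists (number compared in brackets); red points are at least 2-fold higher and blue points at least 2-fold lower in pDCs, black bars are list medians and the dotted line is the median of all compared genes, 0.24. The identity list lies furthest right with a median of 3.48, and the lymphoid rearrangement list furthest left with -3.96.

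Receptors that place and keep cells differed by type. Of 24 trafficking genes, 18 were compared with all other barcodes, with 8 higher and 7 lower, or 8 higher and 4 lower without the mixed barcodes. Selplg, the selectin ligand PSGL-1, had 861 CPM in pDCs and 132 CPM in the others. It was also at least 2-fold higher over the B-lineage, MHC class II-high and monocyte sets. S1pr1, the receptor for exit into blood, had 0 UMIs in pDCs, which allows up to 3.66 CPM, against 57.4 CPM in the others. Itgam, an integrin chain of myeloid cells, had 13.4 CPM in pDCs and 181 CPM in the others. Cxcr4, which retains cells in marrow, had 298 CPM in pDCs and 382 CPM in the others, within 2-fold.

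Of the cytokine receptors, 10 of the 21 compared were higher and 2 lower over all other barcodes, or 9 higher and 3 lower without the mixed barcodes. Over the MHC class II-high set 6 were higher and 6 lower, and over the monocyte set 8 were higher and 5 lower. Flt3 had 254 CPM in pDCs, against 109 CPM in the MHC class II-high and 5.09 CPM in the B-lineage set. Flt3 UMIs were found in 73 pDCs, with a median of 1 per cell. Csf2rb2, a beta chain used with the interleukin-3 receptor in mice, had 141 CPM in pDCs and 10.98 CPM in the others. Il7r, the interleukin-7 receptor of lymphoid progenitors, had 322 CPM in pDCs and 425 CPM in the B-lineage set. Csf1r, the macrophage growth factor receptor, had 12.2 CPM in pDCs (4.77 CPM without the mixed barcodes) and 159 CPM in the monocyte set, which it helped to choose. Tgfbr1 had 215 CPM in pDCs and 35.6 CPM in the others.

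Genes of lymphoid receptor rearrangement were mostly low. Of 20, 19 were compared with all other barcodes, 16 were lower and 0 higher, with a median log2 ratio of -3.96, and the limit on Cd79a and Cd79b favours this. Rag1 had 5 UMIs in pDCs, 6.10 CPM, against 238 CPM in the B-lineage set, and Igkc had 73.2 CPM against 10502 CPM. The heavy chain gene Ighm was less depressed, with 1017 CPM in pDCs (949 to 1089), 4508 CPM in the B-lineage set and 181 CPM in the monocyte set. Every pDC had at least 1 Ighm UMI (median 8, at most 22). At 1000 UMIs a cell, an Ighm UMI was present in 69.8% of pDCs, against 16.5% of monocyte-set barcodes, which should lack the transcript. At full depth these shares were 100% in pDCs (median 6475.5 UMIs) and 75.1% in the monocyte set (median 9201 UMIs). Ighm and Dntt were therefore above the level of the myeloid sets in pDCs, while Rag1 and Pax5 had only 5 and 2 UMIs in pDCs.

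Lysosomal and secretory genes were high next to all other barcodes. Of 24 lysosomal genes, 23 were compared, with 14 higher and 0 lower over all other barcodes and 16 higher over the B-lineage set. Without the mixed barcodes 12 of 22 compared were higher and 0 lower over all other barcodes. Over the MHC class II-high set 4 were higher and 6 lower, and over the monocyte set 3 were higher and 6 lower. With each other set counted equally the list had 5 higher and 3 lower genes and a median log2 ratio of -0.010, against 1.21 with all barcodes pooled. Ctsl, a cathepsin protease, was higher over all 3 sets, with 570 CPM in pDCs, 35.2 CPM in the MHC class II-high and 99.2 CPM in the monocyte set. Psap, a precursor of lipid-hydrolase activators, had 2792 CPM in pDCs, 2199 CPM in the MHC class II-high and 2364 CPM in the monocyte set, within 2-fold. Grn, progranulin, had 854 CPM in pDCs and 322 CPM in the monocyte set.

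Of 40 genes of the secretory pathway, 39 were compared with all other barcodes, with 15 higher and 1 lower, and 8 higher when the median gene was set to 0. Without the mixed barcodes 19 were higher and 1 lower. Over the monocyte set 4 were higher and 1 lower. Xbp1, the factor that builds secretory capacity, had 376 CPM in pDCs and 91.4 CPM in the others, and was higher over all 3 sets. Hspa5, the endoplasmic reticulum chaperone, had 917 CPM in pDCs and 1343 CPM in the MHC class II-high set, within 2-fold. The 1 lower gene was Ckap4, with 21.95 CPM in pDCs (12.7 CPM without the mixed barcodes) and 118 CPM in the others.

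Among survival genes, 4 of 15 were higher and 3 lower over all other barcodes. Bcl2 had 92.7 CPM in pDCs and 26.1 CPM in the others, and the pro-death Bcl2l11 (Bim) had 461 and 116 CPM. Both were also at least 2-fold higher over the B-lineage, MHC class II-high and monocyte sets. Gzmb, a protease reported in pDCs, had 2 UMIs. Of the 24 genes of cell stress from tissue dissociation, 23 were compared, with 0 higher and 6 lower. Without the mixed barcodes 1 was higher and 9 were lower. Egr1 had 25.6 CPM in pDCs (11.1 CPM without the mixed barcodes) and 121 CPM in the others.

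Cell cycle genes were often lower than in all other barcodes, but not than in the MHC class II-high set. Of 30, 29 were compared with all other barcodes, 14 were lower and 1 higher, with a median log2 ratio of -0.94. Without the mixed barcodes 20 were lower and the median was -1.28. Over the MHC class II-high set 6 of 30 were higher and 2 lower, with a median of 0.33, and over the monocyte set 2 were higher and 9 lower. Mki67, a proliferation marker, had 183 CPM in pDCs and 568 CPM in the others, and 105 CPM in the 88 pDCs without mixed barcodes. The gene that was higher was Ccnd2 (162 CPM in pDCs, 73.7 CPM in the others), which fell within 2-fold when the median gene was set to 0. Ccnd1, a D-type cyclin too low in other barcodes to be compared, had 102 CPM in pDCs and 3.83 CPM in the others. At 1000 UMIs a cell, 12 of 96 pDCs (12.5%, interval 6.63 to 20.8) had 3 or more UMIs of 13 mitosis genes, and 7 of 88 (7.95%, 3.26 to 15.7) without the mixed barcodes. The share was 24.8% in the B-lineage, 5.30% in the MHC class II-high and 19.2% in the monocyte set. At full depth it was 37.5% in pDCs, 37.0% in the B-lineage, 36.4% in the MHC class II-high and 61.6% in the monocyte set.

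The pDCs varied among themselves in many genes, with MHC class II genes, Ly6c2 and Hmgb2 among them but not in the lead. By variance over mean in counts at 1000 UMIs a cell, haemoglobin genes ranked 1 to 4 and Lyz2 ranked 6, and the mixed barcodes held most of their UMIs. Cd74, Ly6c2, Hmgb2, H2-Ab1 and H2-Aa were among the 15 leading genes too. Without the mixed barcodes all 5 still were, with Cd74 ranked 4, Ly6c2 ranked 5, Hmgb2 ranked 7, H2-Ab1 ranked 11 and H2-Aa ranked 12. Above them without the mixed barcodes were Gm42418 (ranked 1), Malat1 (ranked 2) and S100a9 (ranked 3), which the selection rule limited. The mixed barcodes held 31.4% of the Ly6c2 UMIs, and 416 of 768 Hmgb2 UMIs were outside them. Cd74 UMIs ran from 0 to 73 per cell, with a median of 4, and were found in 73 pDCs. H2-Aa ran from 0 to 35 and was found in 55 pDCs, so that 41 had none.

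**Figure D4:**
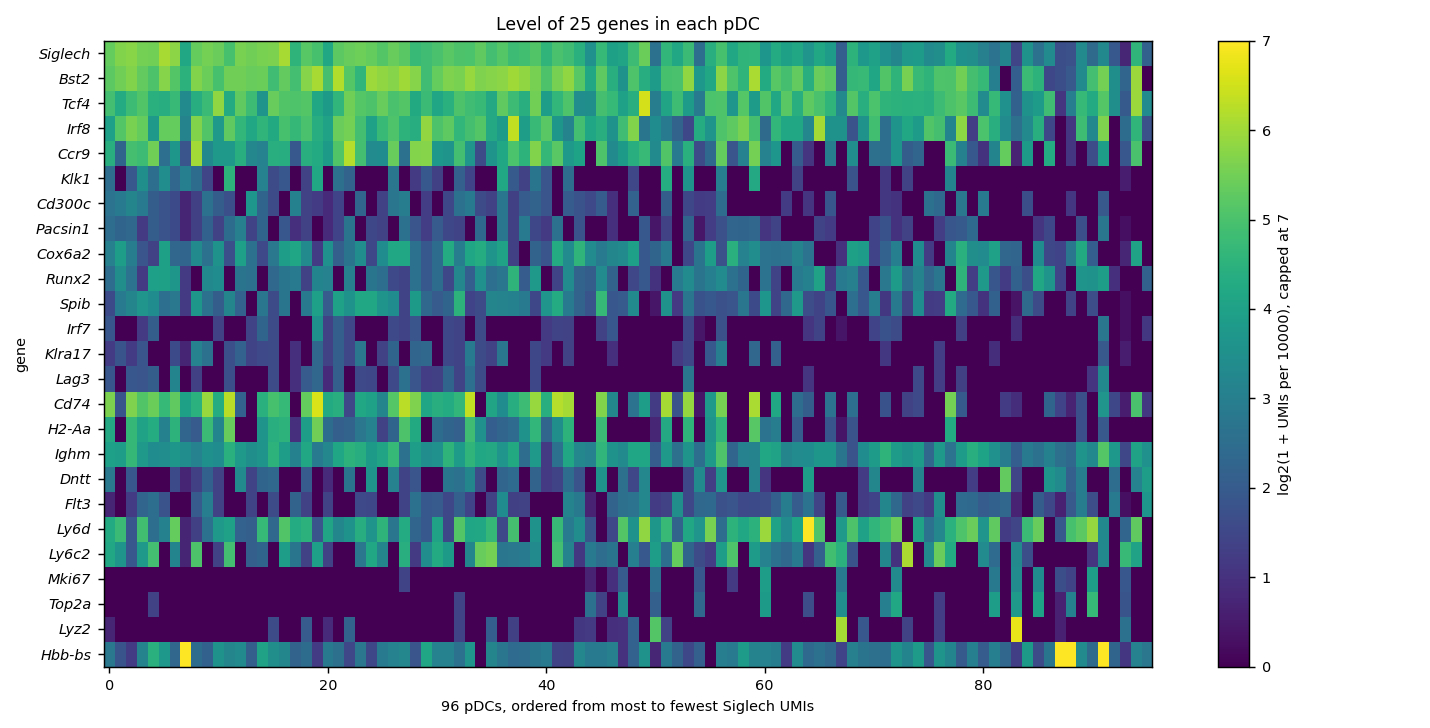
Level of 25 genes, as log2(1 + UMIs per 10000) capped at 7, in each of the 96 pDCs (columns, from most to fewest Siglech UMIs). Cd74 and H2-Aa are bright mainly at the left, where Siglech is high, Mki67 and Top2a mainly at the right, and bright columns of Hbb-bs or Lyz2 are the mixed barcodes.

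H2-Aa, H2-Ab1 and Cd74 were higher where Siglech was higher. Among the 88 pDCs without mixed barcodes, the 30 with 20 or more Siglech UMIs had 1285 CPM of H2-Aa (1134 to 1450), against 411 CPM (352 to 477) in the other 58, with median depths of 6221.5 and 6412.5 UMIs. H2-Ab1 had 1036 CPM in the 30 and 316 CPM in the 58, and Cd74 had 3121 and 1169 CPM. Klk1 was at 396 CPM in the 30 and at 144 CPM in the 58, and Ccr9 at 2228 and 1069 CPM. Lag3 followed with 181 and 37.8 CPM. Flt3 went the other way, with 176 CPM in the 30 and 354 CPM in the 58. Siglech chose the cells and the split, so these are descriptions of how the genes varied together within 1 matrix.

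The 12 pDCs with no Ccr9 UMI were poor in the same genes, at a median depth of 8035.5 UMIs against 6331 in the 84 with Ccr9. They had 15.1 CPM of H2-Aa, against 647 CPM in the 84, and 0 UMIs of Klk1, against 226 CPM. Runx2 did not differ beyond counting error, with 528 CPM in the 12 and 480 CPM in the 84. Without the mixed barcodes, H2-Aa was at 11.9 CPM in 10 cells with no Ccr9 and 801 CPM in 78 with it. Spib had 106 CPM in the 12 and 482 CPM in the 84. Flt3 had 370 CPM in the 12 and 231 CPM in the 84.

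Cells with mitosis transcripts showed the same pattern. In 15 pDCs the 13 mitosis genes took at least 0.1% of UMIs, and 6 of these were mixed barcodes. Of the 15, 5 lay under 0.2%, and 13 other pDCs lay between 0.05% and 0.1%, so the limit cuts a range. Without the mixed barcodes 9 cells were at or over the limit and 79 were under it, with median depths of 9478 and 6263 UMIs. Siglech was at 765 CPM in the 9 and 2624 CPM in the 79, Bst2 at 1676 and 3661 CPM, and Ccr9 at 608 and 1609 CPM. H2-Aa was at 49.0 CPM in the 9, all from 1 cell, and at 821 CPM in the 79, and Klk1 at 9.80 CPM and 268 CPM. Irf8 was at 1510 and 2417 CPM, a smaller difference. Ly6d, by contrast, was at 3176 CPM in the 9 (2840 to 3541) and at 1607 CPM in the 79, with at most 56 UMIs in 1 of the 9. Cox6a2 was at 686 CPM in the 9 and 785 CPM in the 79, with overlapping intervals. Cd34, a progenitor marker, was at 137 CPM in the 9, but 13 of its 14 UMIs came from 1 cell. Hoxa9, a progenitor factor, was at 108 CPM in the 9 and 13.3 CPM in the 79, from 11 UMIs in 5 cells and 7 UMIs in 4 cells. Depth, which was higher in the cells with mitosis transcripts, moved with this split, and its part in the result was not tested.

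**Figure D5:**
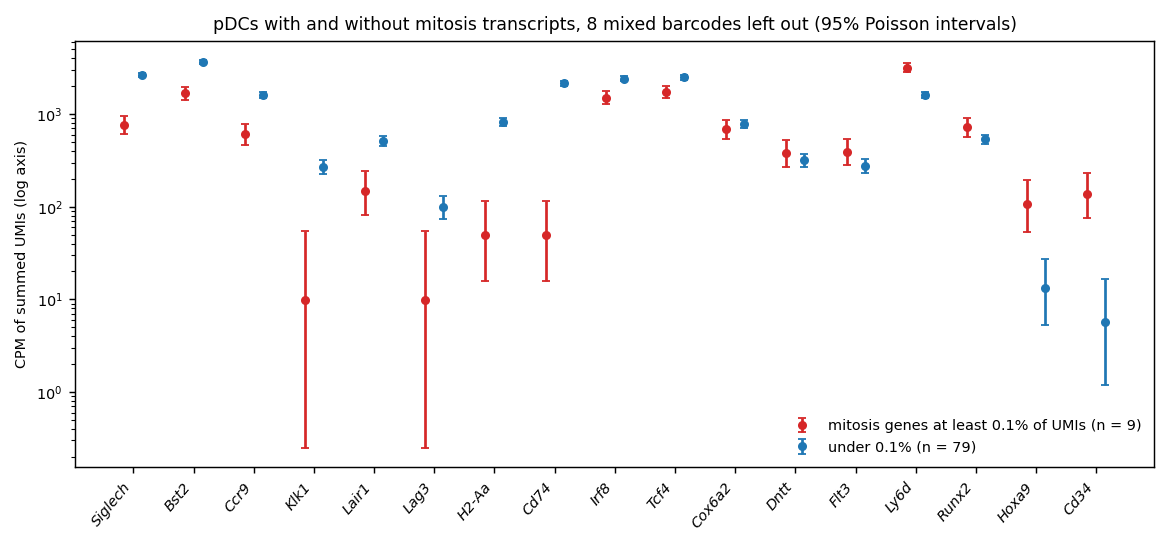
CPM of summed UMIs (log axis, 95% Poisson intervals) of 17 genes in pDCs whose 13 mitosis genes take at least 0.1% of UMIs (red, 9 cells) and in those under 0.1% (blue, 79 cells), with the 8 mixed barcodes left out. Cd74, Klk1 and H2-Aa differ most downward in the 9 cells, and Ly6d, Hoxa9 and Cd34 lie above the 79 cells.

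The genes of the mouse model were not detectable in pDCs at this depth, apart from 1 UMI. Irx3, Irx5 and Col10a1 had 0 UMIs, which allows up to 3.66 CPM each, and Pth1r, the parathyroid hormone receptor, had 1 UMI in pDCs and 3.56 CPM in the others. The added sequence listed as TDT had 0 UMIs in the 96 pDCs, which allows a share of up to 3.13% of cells with a UMI.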

How the data were processed

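Single-cell RNA libraries (10x) of 4 records, all of 1 group, were deposited by the authors as 1 matrix of raw UMI counts, with no normalization, for 31053 genes (500 to 80413 UMIs per barcode, 90273806 in all). The file header names Cell Ranger 3.1.0, and the submitters' processing notes also name Seurat 3 and the build mm10. A second deposited matrix holds counts of 98 added sequences. Annotation was GENCODE vM21 of the same build, and promoters were from RefSeq.

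Barcodes were kept and pDCs chosen by the stated limits. Counts were summed over each set and scaled to a total of 1000000 (CPM), with exact 95% Poisson and Clopper-Pearson intervals. PCR and capture make these intervals counting error only. A count of 0 was set to a floor of 3 over the set for a bound. In pDCs this bound is 3.66 CPM, and the 95% interval for a count of 0 ends higher, at 4.50 CPM. No test was made, because all records share 1 matrix. Cells were thinned once to 1000 UMIs with a fixed seed. Clustering used scanpy 1.11.5 (2000 variable genes, 30 components, 15 neighbours, Leiden resolutions 1 and 2) with Scrublet, in which 741 of 11980 barcodes were called doublets and kept. The call rule was checked on simulated counts.

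Named genes were the 20 highest and 10 lowest ratios over all other barcodes (for the highest, at least 20 pDC UMIs and a UMI in 20% of pDCs), the 8 highest and 8 lowest over each of the B-lineage, MHC class II-high and monocyte sets, the members of 22 lists, the 15 most variable genes, the markers, and model genes. Members and lists were chosen with earlier results of these data known. A gene that passed the filter had a pooled level predicting at least 5 UMIs on each side. Mixed barcodes (at least 5% haemoglobin UMIs or 20 Lyz2 UMIs) were defined after the data were seen. Alternative limits, scalings, filters and thinning depths are reported at the end. Some genes counted in the lists are not reported here by name.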

Additional observations from a re-analysis of the deposited data

Results flagged for a closer look

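The second matrix counts sequences added to the genome, which none of the comparisons used, and 1 of them gave a signal in pDCs. WPRE, a regulatory element used in expression constructs, had 73 UMIs in pDCs, 89.0 CPM (69.8 to 112), in 47 of the 96 cells (49.0%). It was at 96.2 CPM in the MHC class II-high, 60.4 CPM in the monocyte, 42.3 CPM in the B-lineage, 39.7 CPM in the neutrophil and 11.3 CPM in the haemoglobin set. The 21 left-out Siglech barcodes had 121.5 CPM, and the 3128 barcodes in no named set had 99.6 CPM. WPRE was thus not particular to pDCs. The level in pDCs was above the limit that a count of 0 allows, 3.66 CPM, and there was no control sample. The sequences listed as TDT and CRE had 0 UMIs in pDCs, and EGFP had 1. The source of the WPRE counts was not tested.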

How the results depend on the processing

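No paired analysis was possible because the 4 records of 1 group are pooled in 1 matrix, and for the same reason no record could be left out. With at most 5% mitochondrial UMIs only 6 pDCs remained (0.110% of kept barcodes), and the genes at least 2-fold higher and lower in pDCs numbered 262 and 320 over all other barcodes, 169 and 426 over the B-lineage, 204 and 579 over the MHC class II-high and 138 and 673 over the monocyte set. In the same order of sets, a filter of 20 predicted UMIs gave 470 and 587, 359 and 794, 764 and 520, and 530 and 638. A 4-fold limit gave 214 and 473, 265 and 437, 475 and 411, and 384 and 425. A 1.5-fold limit gave 2604 higher over all other barcodes, 1586 and 2515 over the B-lineage, 3172 and 1467 over the MHC class II-high and 2419 and 1833 over the monocyte set. With no filter on low counts 2762, 2232 and 2369 genes were higher over all other barcodes, the B-lineage and the monocyte set. Totals without the 50 most abundant genes gave 656 higher and 1465 lower over all other barcodes, and setting the median to 0 gave 729 and 1394, and 1162 and 1261 over the MHC class II-high set. Thinned to 500 UMIs, 39.6% of pDCs had a Ccr9 UMI, 10.4% Klk1 and 5.21% 3 or more mitosis UMIs. Without thinning these were 87.5%, 41.7% and 37.5%, with 57.3% for H2-Aa and 28.1% for Tlr7. The cause of these shifts beyond the filters themselves was not tested. The median of the lysosome list turned to -0.010 with each other set counted equally. Of 378 list medians, 328 stayed within the spread of the main value, 49 moved and 1 turned, and the sign changed in 27, in 10 of 21 lists. Leaving out the 8 mixed barcodes, and comparing without the 21 barcodes over another limit, were chosen after seeing the data. With 96 cells, genes under 3.66 CPM in pDCs cannot be told from 0.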

Other observations

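Lists not described above gave these counts over all other barcodes. Of 8 classical dendritic cell genes compared, 3 were higher in pDCs and 1 lower, and without the mixed barcodes 1 of 5 was higher and 2 were lower. Clec10a and Cd209a passed the filter on low counts only with the mixed barcodes included. Clec10a, a galactose-binding lectin, had 78.1 CPM in pDCs and 5.67 CPM in the others, and Cd209a, a C-type lectin, had 43.9 and 6.21 CPM. Of 18 receptor signalling genes, 3 were higher and 3 lower. The adaptor Tyrobp had 1959 CPM in pDCs and 739 CPM in the others, and the B-cell linker Blnk had 438 and 176 CPM.

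Of 15 cytokine and chemokine genes compared, 3 were higher and 6 lower, or 3 higher and 8 lower of 14 without the mixed barcodes. Lgals1, galectin-1, had 1315 CPM in pDCs and 175 CPM in the others, and Il12a, the p35 chain of interleukin-12, had 73.2 and 25.5 CPM. Il1b, interleukin-1 beta, had 13.4 CPM in pDCs and 124 CPM in the others. Of 14 progenitor genes, 4 were higher and 4 lower. Of 6 lytic and death ligand genes, 0 were higher and 4 lower, and of 16 glycolysis genes, 0 were higher and 3 lower, or 7 lower without the 8 mixed barcodes. Slc16a3, a lactate carrier, had 15.9 CPM in pDCs (6.37 CPM without the mixed barcodes) and 129.9 CPM in the others.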
